A study of Mus musculus with 9 samples.

Results

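The 10 genes described here are members of the NRF2 antioxidant response, the program through which cells answer oxidants and electrophiles. They were chosen by symbol as the rows Nfe2l2, Keap1, Hmox1, Nqo1, Gclc, Gclm, Txnrd1, Srxn1, Prdx1 and Gsr, 10 of 24819 gene symbols in the table, and all 10 were found. All of them reached 1 FPKM in 3 or more of the 9 libraries, the filter that left 12330 genes for testing. FPKM scale fragments by transcript length and library size, so levels can be roughly compared between genes. How the libraries were scaled to each other is not given. The RNA came from E14 cells, a mouse embryonic stem cell line, kept on gelatin in 3 media with 3 libraries each. EPSCM is expanded potential stem cell medium; the labels do not give its composition. 2iLIF is N2B27 medium with the 2i inhibitor pair and leukemia inhibitory factor (LIF). ES is serum medium with high glucose DMEM, 15% fetal bovine serum, 2 mM glutamine and 100 µM non-essential amino acids. It also holds 100 µM β-mercaptoethanol, which is a reducing agent, antibiotics and LIF at 1000 U/mL. Whether the other 2 media hold reducing agents or antioxidants is not given here. Whether the 3 libraries of a medium are separate cultures is not stated, so p-values cover only library-to-library spread, which may be technical. In bulk RNA, fewer cells with a message and less of it per cell cannot be told apart.

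NRF2, the protein of Nfe2l2, is a transcription factor that is held low by KEAP1, an adaptor that hands it to a CUL3 ubiquitin ligase for destruction. Oxidants and electrophiles modify cysteines of KEAP1, NRF2 then builds up, pairs with small MAF proteins and binds antioxidant response elements, and BACH1 competes for the same elements. Because much of this control acts on the protein, the level of Nfe2l2 RNA is not a measure of NRF2 activity. The targets measured here make glutathione (Gclc, Gclm), keep it and thioredoxin reduced (Gsr, Txnrd1), clear and repair peroxides (Prdx1, Srxn1), reduce quinones (Nqo1) and break down haem (Hmox1).

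The promoters come first because NRF2 acts through an element in the DNA of its targets; the members themselves were chosen by symbol, not by this element. RefSeq windows of GRCm38.p6, from 250 bases before to 50 after a start, were found for 7 of the 10 members, in 9 windows; Hmox1, Gclc and Gsr had none. The core of the element, TGACNNNGC, was searched on both strands. It was present in 5 of 9 windows, 1 each of Nfe2l2, Gclm, Txnrd1, Srxn1 and Prdx1, and in 12.4% of all 32851 windows. Prdx1 held the stricter TGACTCAGC, which begins with the AP-1 site TGACTCA and was found in 0.454% of all windows. The windows of Nfe2l2, Gclm and Prdx1 are shown with the core in capitals, and that of Nqo1, the member that varied most between media, is shown for comparison. A match describes letters only, and where none was found this says nothing about elements outside the window.
Prdx1 (chr4:116685349-116685648, plus strand, match on the opposite strand and ending 124 bases before the start): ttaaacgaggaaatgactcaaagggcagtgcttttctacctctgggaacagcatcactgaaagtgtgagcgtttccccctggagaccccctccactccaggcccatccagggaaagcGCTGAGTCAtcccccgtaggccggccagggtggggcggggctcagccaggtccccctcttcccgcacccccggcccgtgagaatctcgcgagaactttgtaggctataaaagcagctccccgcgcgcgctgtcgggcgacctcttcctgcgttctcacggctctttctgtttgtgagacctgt
Nfe2l2 (chr2:75704614-75704913, minus strand, match on the gene's strand and ending 231 bases before the start): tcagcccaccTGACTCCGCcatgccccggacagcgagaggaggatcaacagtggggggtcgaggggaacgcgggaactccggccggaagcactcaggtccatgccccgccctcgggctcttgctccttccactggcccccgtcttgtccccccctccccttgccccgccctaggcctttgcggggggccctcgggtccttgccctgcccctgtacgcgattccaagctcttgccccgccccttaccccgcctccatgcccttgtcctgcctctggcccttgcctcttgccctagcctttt
Gclm (chr3:122245307-122245606, plus strand, match on the opposite strand and ending 125 bases before the start): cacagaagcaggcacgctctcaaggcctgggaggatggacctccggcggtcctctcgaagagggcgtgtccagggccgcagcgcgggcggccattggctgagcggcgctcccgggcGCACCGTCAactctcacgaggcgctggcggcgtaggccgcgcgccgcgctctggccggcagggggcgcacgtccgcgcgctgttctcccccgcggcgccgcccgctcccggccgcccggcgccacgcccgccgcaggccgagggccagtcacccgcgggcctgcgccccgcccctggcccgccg
Nqo1 (chr8:107403156-107403455, minus strand, no match): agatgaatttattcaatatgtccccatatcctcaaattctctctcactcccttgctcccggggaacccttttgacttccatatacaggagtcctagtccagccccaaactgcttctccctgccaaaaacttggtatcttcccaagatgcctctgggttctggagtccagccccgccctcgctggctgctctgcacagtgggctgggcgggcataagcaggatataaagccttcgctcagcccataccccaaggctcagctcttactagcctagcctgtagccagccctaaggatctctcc
For Txnrd1 and Srxn1 the match is shown with 10 bases on each side, again on the opposite strand, 83 bases before the start in 1 of 3 Txnrd1 windows and 28 bases after the start in Srxn1. The Srxn1 window also holds TGAGTCAGC before its start, which differs from the stricter TGACTCAGC in 1 letter. Forms that begin with TGAG were not searched, so their share of all windows is not known.
Txnrd1: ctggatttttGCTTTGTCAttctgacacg
Srxn1: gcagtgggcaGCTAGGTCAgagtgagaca

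Library sums were 546636 to 600728 FPKM, and 11155 to 11764 genes reached 1 FPKM in a library. No 2 columns were identical. In each medium 1 library stood apart from the other 2, which are called the close libraries: EPSCM replicate 2, 2iLIF replicate 1 and ES replicate 1. Across the tested genes, which are not independent replicates, log2(FPKM + 1) of the close libraries correlated at r = 0.9959 to 0.9967 and that of pairs with the third library at 0.9855 to 0.9902. The split is balanced over the media, and it matters most for Prdx1. Embryonic stem cell markers were present in all libraries: all 10, Pou5f1, Sox2 and Nanog among them, were at or above 1 FPKM throughout. Their levels moved with the media: 7 of the 10 fell and 1 rose in EPSCM against ES, where 31.5% of all tested genes fell and 41.6% rose. In EPSCM against 2iLIF 4 fell and 4 rose, against 31.4% and 36.6% of all genes. Pou5f1 averaged 627 FPKM in EPSCM, 1064 in 2iLIF and 1352 in ES, and Zfp42 163, 404 and 534. Fgf4 was highest in EPSCM, at 165, 88.8 and 85.3 FPKM in the same order, and Dppa5a averaged 3393, 4149 and 2985. The 12 primitive endoderm markers summed to 53.8 to 59.9 FPKM in EPSCM, 34.0 to 37.7 in 2iLIF and 33.9 to 37.6 in ES, with Sox17, Foxa2, Cubn and Afp under 1 FPKM in all libraries. Within that list Col4a1 averaged 27.1 FPKM in EPSCM, 3.31 in 2iLIF and 5.79 in ES. In the same order Gata6 averaged 3.17, 0.258 and 0.675, and Gata4 3.22, 1.19 and 0.817. Lama1 was lowest in EPSCM (17.1, 28.7 and 21.7), and Sox7 was highest in ES (0.0315, 0.0422 and 2.79). Of the 7 primitive endoderm markers tested, 5 rose and 2 fell in EPSCM against ES, where 41.6% of all genes rose and 31.5% fell. Against 2iLIF 5 rose and 1 fell in EPSCM, beside 36.6% and 31.4% of all genes. The 12 trophoblast markers summed to 58.4 to 69.3 FPKM in EPSCM, 77.4 to 89.0 in 2iLIF and 33.5 to 38.8 in ES, with Elf5, Gata3, Krt7 and Plac1 under 1 FPKM and Prl3d1 at 0. In that list Krt8 averaged 6.16 FPKM in EPSCM, 47.6 in 2iLIF and 6.90 in ES, and Cdx2 0.0411, 2.85 and 0.109. Others were highest in EPSCM: Tfap2c averaged 37.3, 21.7 and 18.2 FPKM in the same order, Eomes 4.40, 3.30 and 1.03, and Ascl2 5.02, 0.883 and 4.06. Of the 6 trophoblast markers tested, 4 rose and 2 fell in EPSCM against 2iLIF, against 36.6% and 31.4% of all genes. The 12 fibroblast markers summed to 136 to 159 FPKM in EPSCM, 71.8 to 83.6 in 2iLIF and 154 to 177 in ES. Of them 8, Col1a1, Col1a2 and Dcn included, were under 1 FPKM in every library, and Fap was at 0. Most of the sum was Vim, at a mean of 130 FPKM in EPSCM, 71.5 in 2iLIF and 145 in ES. Thy1 averaged 6.02, 0.410 and 14.4 in the same order, while Pdgfrb (5.74, 3.28 and 1.29) and Twist1 (2.84, 0.543 and 0.751) were highest in EPSCM. The part of these sums in the differences below was not tested.

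The members did not move as a block. Nqo1, Nfe2l2, Gsr and Keap1 were highest in 2iLIF, Hmox1 and Txnrd1 in EPSCM, and Gclm in ES, while the 2 subunits of the enzyme that starts glutathione synthesis moved in opposite directions between EPSCM and ES. Differences, given ± SE, are of log2(FPKM + 1) and come from 1 limma model over all 9 libraries. A gene passed, and is said to rise or fall, at a Benjamini-Hochberg adjusted p under 0.05, and it was called when the difference was also at least 1 in size.

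In EPSCM against ES, 4 members rose and 3 fell, where 41.6% of all tested genes rose and 31.5% fell. So 7 of 10 members passed, against 73.1% of all genes. None was called, against 19.7% of all genes. In EPSCM against 2iLIF 2 members rose and 6 fell, against 36.6% and 31.4% of all genes. So 8 of 10 passed, against 68.0% of all genes, and Keap1 and Nqo1 were called, 2 of 10, against 16.1%. In 2iLIF against ES 5 members rose and 1 fell, against 34.8% and 32.2% of all genes. So 6 of 10 passed, against 67.0% of all genes, and Nqo1 alone was called, against 14.7%. Any difference among the media passed for 9 of 10 members by limma's moderated F statistic and for 85.5% of all genes; Prdx1 was the member that did not pass. The shares of members that passed were thus near those of all genes. With the split between libraries as a covariate, and likewise in the close libraries alone, 8 members passed in EPSCM against ES, 9 in EPSCM against 2iLIF and 8 in 2iLIF against ES. The shares of all genes that passed in those fits are not given, so these counts cannot be set against them. The split was also chosen from these same data, so the spread in both fits may be too small. The median difference of the members was 0.03 in EPSCM against ES, -0.45 in EPSCM against 2iLIF and 0.27 in 2iLIF against ES, and the medians of all tested genes were 0.09, 0.03 and 0.03 in the same order. The 3 comparisons share libraries and are not independent.

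**Figure D1:**
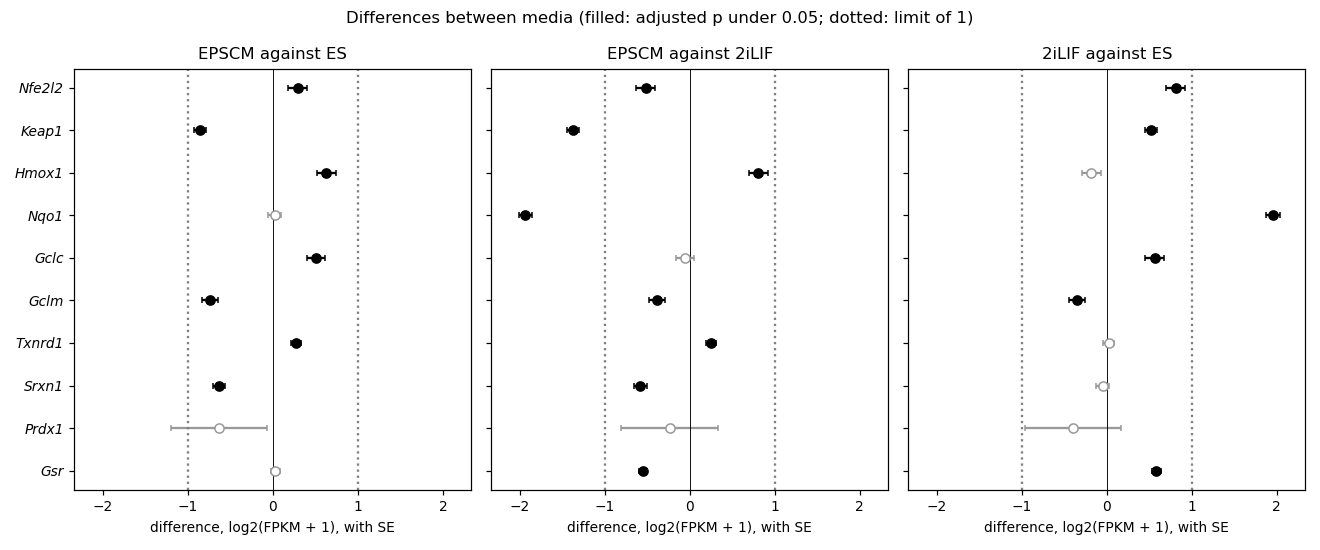
Differences of the 10 members in the 3 comparisons on the log2(FPKM + 1) scale, with the first named medium minus the second, bars of 1 SE, filled points at an adjusted p under 0.05 and dotted lines at a difference of 1 in either direction. Nqo1 and Keap1 lie below the lower dotted line in EPSCM against 2iLIF, Nqo1 lies at 1.96 in 2iLIF against ES, and Prdx1 has the widest bars in all 3 panels.

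The regulator and its repressor were both highest in 2iLIF, and both fell in EPSCM against 2iLIF. In EPSCM against ES the repressor fell, while the regulator had a small rise that did not hold in every setting. Nfe2l2, the gene of NRF2, stood at 48.4, 37.9 and 44.3 FPKM in EPSCM, 56.2, 65.4 and 66.0 in 2iLIF and 31.4, 39.0 and 35.5 in ES. All 2iLIF libraries lay above the other 6, and EPSCM overlapped ES. It rose by 0.81 ± 0.11 in 2iLIF against ES (limma adjusted p = 1.89e-04) and fell in EPSCM against 2iLIF (-0.52 ± 0.11, adjusted p = 0.00278). Its rise in EPSCM against ES, at 0.29 ± 0.11 (adjusted p = 0.0398), was lost in 11 of 24 other settings, over which the adjusted p ranged from 7.60e-05 to 0.151. It was lost without EPSCM replicate 1 (0.21, adjusted p = 0.139), EPSCM replicate 3 (0.28, 0.0983), ES replicate 1 (0.21, 0.127), ES replicate 3 (0.30, 0.0794), 2iLIF replicate 2 (0.29, 0.0526) or 2iLIF replicate 3 (0.29, 0.0513). Relative to the median of the 976 tested genes of its chromosome, chromosome 2, it was 0.17. That setting keeps the adjusted p of the main fit, so the rise could not be lost there.

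Keap1, the repressor, had 7.25, 7.03 and 6.68 FPKM in EPSCM, 21.4, 19.1 and 18.8 in 2iLIF and 14.5, 12.8 and 13.1 in ES. The 3 media did not overlap, and each step of the order 2iLIF, ES, EPSCM passed. It fell by 1.38 in EPSCM against 2iLIF (SE 0.07, limma adjusted p = 3.36e-07) and by 0.86 in EPSCM against ES (SE 0.07, adjusted p = 5.73e-06), and it rose by 0.52 ± 0.07 in 2iLIF against ES (adjusted p = 1.98e-04). With quantile normalization the difference in EPSCM against ES was -1.01 and was called. By GENCODE M21 the exons of Keap1 share 510 bases with Gm16754 on the other strand, and whether the counting used strand is not stated.

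The ratio of both within a library is not changed by a single scaling factor for that library, though quantile normalization can change it; the pair was chosen after the values were seen, and no test is given. The FPKM of Nfe2l2 divided by that of Keap1 was 5.38 to 6.68 in EPSCM, 2.62 to 3.51 in 2iLIF and 2.16 to 3.03 in ES. The EPSCM ratios lay above all others, and those of 2iLIF and ES overlapped. The lowest ratio of each medium was that of the library that stood apart.

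**Figure D2:**
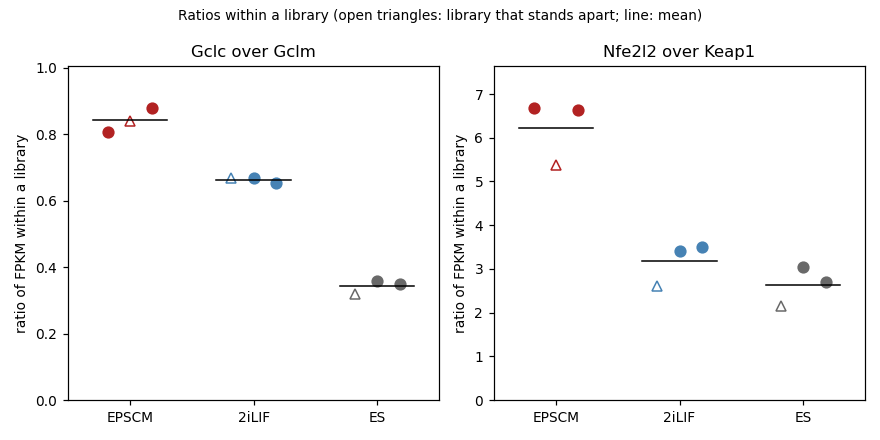
FPKM of Gclc over Gclm (left) and of Nfe2l2 over Keap1 (right) within each library, by medium, with 3 libraries per medium, the mean as a line and the library that stood apart as an open triangle. The Gclc to Gclm ratio separates the 3 media, and the Nfe2l2 to Keap1 ratio is at least 5.38 in the EPSCM libraries and at most 3.51 in the others.

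Nqo1, the quinone reductase often used as a readout of NRF2, had the largest differences among the members. It stood at 20.4, 16.5 and 19.5 FPKM in EPSCM, 71.1, 76.6 and 75.6 in 2iLIF and 18.4, 19.3 and 17.6 in ES. The 2iLIF libraries were far above the other 6, which overlapped. The difference was 1.96 ± 0.08 in 2iLIF against ES (limma adjusted p = 8.02e-08) and -1.94 ± 0.08 in EPSCM against 2iLIF (adjusted p = 8.52e-08), and it was 0.02 ± 0.08 in EPSCM against ES (adjusted p = 0.814). With array weights, which give less weight to more variable libraries, EPSCM against ES passed at 0.13 (adjusted p = 0.0109).

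Gsr, the glutathione reductase that regenerates glutathione with NADPH, showed the same order with smaller steps. Its libraries were at 49.3, 45.6 and 48.1 FPKM in EPSCM, 69.7, 69.8 and 71.7 in 2iLIF and 47.9, 44.9 and 47.2 in ES. It rose by 0.58 ± 0.05 in 2iLIF against ES (limma adjusted p = 9.27e-06) and fell by 0.55 in EPSCM against 2iLIF (SE 0.05, adjusted p = 1.18e-05). In EPSCM against ES the libraries overlapped, at 0.03 ± 0.05 (adjusted p = 0.621).

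Hmox1 and Txnrd1 were the members that were highest in EPSCM. Hmox1, the inducible haem oxygenase, stood at 88.1, 106.7 and 90.1 FPKM in EPSCM, 60.5, 51.1 and 49.9 in 2iLIF and 69.8, 57.4 and 56.5 in ES. All EPSCM libraries were above the other 6, and 2iLIF overlapped ES. It rose by 0.63 ± 0.11 in EPSCM against ES (limma adjusted p = 8.38e-04) and by 0.81 ± 0.11 in EPSCM against 2iLIF (adjusted p = 1.96e-04). The difference in 2iLIF against ES was -0.18 ± 0.11 (limma adjusted p = 0.189), and over all settings the adjusted p ranged from 3.11e-05 to 0.520. In the close libraries alone it was -0.17 and passed (limma adjusted p = 0.00114). Those libraries were chosen from these same data, so that value may be too small. Hmox1, Nqo1 and Gsr lie on chromosome 8, whose 679 tested genes had a median difference of 0.22 in EPSCM against ES, against 0.09 for all genes. Relative to that median Hmox1 differed by 0.41, Nqo1 by -0.20 and Gsr by -0.19.

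Txnrd1, the cytosolic thioredoxin reductase and a selenoprotein, moved least of the members that passed. It stood at 136, 147 and 133 FPKM in EPSCM, 121, 115 and 113 in 2iLIF and 121, 112 and 111 in ES. EPSCM lay above the others without overlap, and 2iLIF and ES overlapped, at 0.02 ± 0.06 (limma adjusted p = 0.777). It rose by 0.27 ± 0.06 in EPSCM against ES (adjusted p = 0.00300) and by 0.25 ± 0.06 in EPSCM against 2iLIF (adjusted p = 0.00521). The size depended on the scaling: in EPSCM against ES it was 0.47 with quantile normalization, 0.17 with libraries scaled to the same median ratio and 0.11 relative to the median of chromosome 10. In EPSCM against 2iLIF it was 0.13 relative to that chromosome, and it did not pass with the close libraries averaged (adjusted p = 0.0650, with a range from 1.35e-06 to 0.0650 over all settings).

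**Figure D3:**
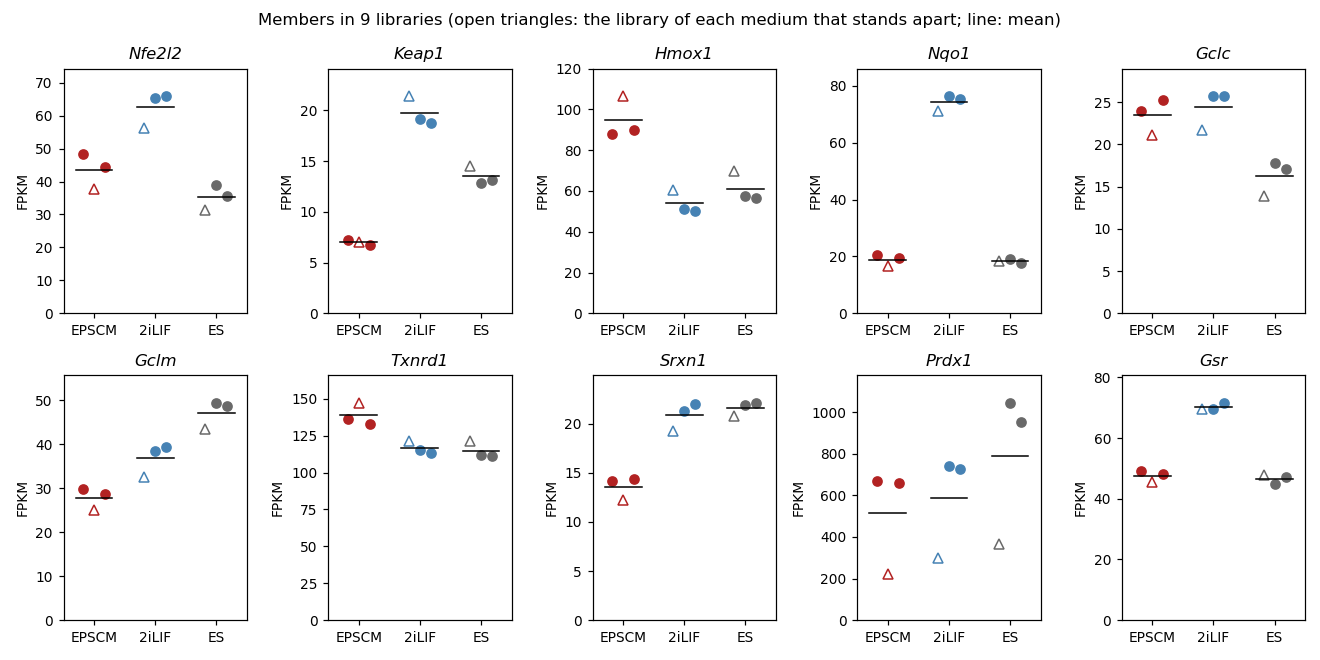
FPKM of the 10 members in each of the 9 libraries, by medium, on linear axes from 0; points are libraries, the line is the mean of 3, and open triangles are the libraries that stood apart. Nqo1 is at 71.1 to 76.6 in 2iLIF and at most 20.4 elsewhere, Keap1 forms 3 separate levels, and in Prdx1 the open triangles lie far below the filled points of every medium.

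The 2 subunits of glutamate cysteine ligase, the rate-limiting enzyme of glutathione synthesis, moved in opposite directions in both comparisons with ES. Gclc, the catalytic subunit, stood at 24.0, 21.1 and 25.2 FPKM in EPSCM, 21.7, 25.7 and 25.7 in 2iLIF and 13.9, 17.7 and 17.1 in ES. ES lay below the other 2 media, which overlapped. It rose by 0.51 ± 0.11 in EPSCM against ES (limma adjusted p = 0.00257) and by 0.56 ± 0.11 in 2iLIF against ES (adjusted p = 0.00164), and it was at -0.06 ± 0.11 in EPSCM against 2iLIF (adjusted p = 0.674). Gclm, the modifier subunit, stood at 29.8, 25.1 and 28.7 FPKM in EPSCM, 32.6, 38.5 and 39.3 in 2iLIF and 43.3, 49.4 and 48.7 in ES. The 3 media did not overlap. It fell by 0.74 in EPSCM against ES (SE 0.09, limma adjusted p = 9.26e-05), by 0.39 in EPSCM against 2iLIF (SE 0.09, adjusted p = 0.00547) and by 0.35 in 2iLIF against ES (SE 0.09, adjusted p = 0.00914).

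The smaller falls of Gclm did not hold in every setting. With the close libraries averaged the adjusted p was 0.0582 in EPSCM against 2iLIF (range over all settings 3.74e-07 to 0.0582) and 0.0677 in 2iLIF against ES (range 8.13e-07 to 0.0677). With libraries scaled to the same sum it was 0.0568 in 2iLIF against ES. The ratio of Gclc to Gclm within a library, which a single factor per library cannot change, was 0.805 to 0.878 in EPSCM, 0.653 to 0.669 in 2iLIF and 0.320 to 0.359 in ES. The 3 media did not overlap, and the library that stood apart lay between the close ones in EPSCM and 2iLIF and below them in ES; this pair was also chosen after its values were seen and has no test. By GENCODE M21 the exons of Gclm share 296 bases with Gm17494 on the other strand and 244 with Gm6061 on the same strand, so its single value is uncertain to that extent.

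Srxn1 and Prdx1 act in sequence, since sulfiredoxin repairs peroxiredoxins that peroxide has over-oxidised. Srxn1 stood at 14.2, 12.3 and 14.3 FPKM in EPSCM, 19.3, 21.3 and 22.0 in 2iLIF and 20.8, 21.9 and 22.1 in ES. EPSCM lay below all 6 others, and 2iLIF and ES overlapped, at -0.05 ± 0.08 (limma adjusted p = 0.589). It fell by 0.63 in EPSCM against ES (SE 0.08, adjusted p = 5.96e-05) and by 0.58 in EPSCM against 2iLIF (SE 0.08, adjusted p = 1.19e-04). Its fall in EPSCM was opposite to the rise of Hmox1 and Txnrd1 in both comparisons.

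Prdx1, an abundant peroxidase of the cytosol, was the most abundant member and the least well measured. It stood at 670, 221 and 660 FPKM in EPSCM, 299, 739 and 726 in 2iLIF and 369, 1046 and 952 in ES. In every medium the library that stood apart was far below the close ones, at 0.333 times their mean in EPSCM, 0.408 in 2iLIF and 0.369 in ES. No more than 0.211% of all tested genes had a larger gap of that kind in any medium, on the log2(FPKM + 1) scale. With all libraries the differences were -0.63 ± 0.57 in EPSCM against ES, -0.24 ± 0.57 in EPSCM against 2iLIF and -0.40 ± 0.57 in 2iLIF against ES, with limma adjusted p = 0.337, 0.732 and 0.559 in the same order.

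In the close libraries alone Prdx1 passed in all 3 comparisons. There it fell by 0.59 in EPSCM against ES (limma adjusted p = 8.64e-06), by 0.14 in EPSCM against 2iLIF (adjusted p = 0.0175) and by 0.45 in 2iLIF against ES (adjusted p = 4.78e-05). With the split between libraries as a covariate all 3 passed as well, with limma adjusted p = 1.72e-06, 0.00242 and 7.27e-05. With array weights EPSCM against ES passed (limma adjusted p = 0.0284). The libraries that stood apart were chosen from these same data, and Prdx1 had one of the widest gaps of that kind. Leaving them out or fitting the split removes that gap from the spread. The adjusted p-values of both fits may therefore be too small, and they do not settle whether Prdx1 fell. Over all settings the adjusted p reached 0.862, 0.986 and 0.964. Within the libraries that stood apart EPSCM was again the lowest and ES the highest, at 221 FPKM in EPSCM, 299 in 2iLIF and 369 in ES, with 1 library per medium and so no test. Without EPSCM replicate 2 the difference in EPSCM against 2iLIF was 0.29, and without 2iLIF replicate 1 that in 2iLIF against ES was 0.03.

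The other 9 members had ratios of the library that stood apart to the close ones between 0.797 and 1.23. Several moved the same way in all 3 media: Hmox1 was at 1.20 in EPSCM, 1.20 in 2iLIF and 1.23 in ES, and Nfe2l2 at 0.817, 0.856 and 0.843. Gclc and Gclm were below 1 in all 3, and Txnrd1 above. What sets these libraries apart is not given in the labels, and its part in these values was not tested.

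**Figure D4:**
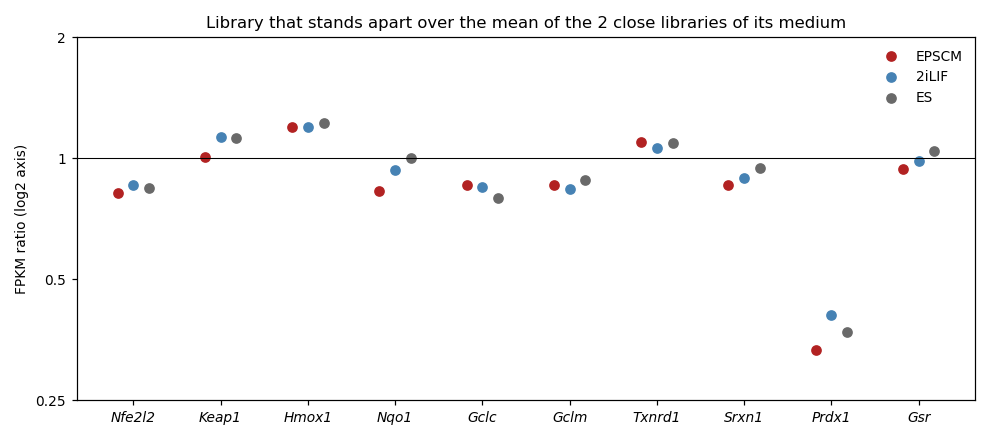
FPKM in the library that stood apart over the mean of the 2 close libraries of the same medium, for each member, on a log2 axis; each point is 1 medium and the line marks a ratio of 1. Prdx1 lies between 0.333 and 0.408 and the other members between 0.797 and 1.23.

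For the 3 members with the widest range between media, the genes with the most similar profile over the 9 libraries were found among all tested genes. For Nqo1 they were Pik3r3 (r = 0.9986), Agk (0.9971) and Myof (0.9968). For Keap1 they were Scly (0.9978), Gpa33 (0.9974) and Lrrn2 (0.9968), and for Nfe2l2 Kdm3a (0.9943), Dusp11 (0.9942) and Zmym4 (0.9914). Many genes can share a profile that 3 media set. At the looser cut of r above 0.95 there were 390 other genes for Nqo1, 392 for Keap1 and 163 for Nfe2l2, among 12330 tested. How many reached the values above was not counted.

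Of 109 other genes of the pathway and its neighbours in 6 lists, 98 were tested. The genes named from each list below are called genes with the largest differences, so they do not stand for their list. In EPSCM against ES 44 rose and 26 fell; 71.4% passed, against 73.1% of all genes, and 25.5% were called, against 19.7%. In EPSCM against 2iLIF 40 rose and 25 fell; 66.3% passed, against 68.0%, and 21.4% were called, against 16.1%. In 2iLIF against ES 40 rose and 28 fell; 69.4% passed, against 67.0%, and 21.4% were called, against 14.7%. The shares that passed were near those of all genes, and whether any of these shares differs from that of all genes was not tested. The counts for each list stand beside 41.6% of all tested genes that rose and 31.5% that fell in EPSCM against ES, 36.6% and 31.4% in EPSCM against 2iLIF, and 34.8% and 32.2% in 2iLIF against ES.

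Among the partners and regulators of NRF2, 8 rose and 2 fell of 13 in EPSCM against ES, 5 rose and 4 fell in EPSCM against 2iLIF, and 7 rose and 1 fell in 2iLIF against ES. The median differences were 0.69, -0.01 and 0.19, beside 0.09, 0.03 and 0.03 for all tested genes. Bach1, the repressor that competes with NRF2, averaged 18.6 ± 1.56 FPKM in EPSCM, 20.6 ± 1.31 in 2iLIF and 7.20 ± 0.370 in ES (SD, n = 3 each), and it rose by 1.26 ± 0.08 in EPSCM against ES and by 1.40 ± 0.08 in 2iLIF against ES (limma adjusted p = 7.25e-07 and 4.51e-07). Its relative Bach2 was at 0.155 ± 0.0198 FPKM in EPSCM, 4.96 ± 0.153 in 2iLIF and 0.547 ± 0.0263 in ES, and was called in both comparisons with 2iLIF. Maff, a small MAF partner, was at 23.7 ± 1.15 FPKM in EPSCM, 6.12 ± 0.362 in 2iLIF and 8.50 ± 0.689 in ES, and Mafk at 6.70 ± 0.596, 2.42 ± 0.445 and 3.19 ± 0.577. Sqstm1, whose protein p62 binds KEAP1 and is an NRF2 target, was at 114 ± 10.9 FPKM in EPSCM, 159 ± 11.7 in 2iLIF and 67.8 ± 5.16 in ES, called in 2iLIF against ES (1.22 ± 0.09).

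Of 20 genes of glutathione synthesis and use, 7 rose and 8 fell in EPSCM against ES, 8 rose and 4 fell in EPSCM against 2iLIF, and 7 rose and 9 fell in 2iLIF against ES. Gss, glutathione synthetase, which acts after Gclc and Gclm, averaged 34.0 ± 3.33 FPKM in EPSCM, 89.4 ± 6.49 in 2iLIF and 15.0 ± 2.12 in ES, and its rise of 2.50 ± 0.11 in 2iLIF against ES (limma adjusted p = 1.08e-07) was the largest of the list. Glrx, a glutaredoxin, rose in both media against ES, by 1.22 ± 0.05 in EPSCM and 1.72 ± 0.05 in 2iLIF. Ggt1, a glutathione-cleaving enzyme of the cell surface, was at 11.9 ± 1.60 FPKM in EPSCM, 5.00 ± 0.656 in 2iLIF and 3.49 ± 0.221 in ES; its call in EPSCM against 2iLIF (1.10 ± 0.11) was lost relative to the median of its chromosome (0.98) and without EPSCM replicate 2 (0.9988). Ggt7, a relative of Ggt1, rose in EPSCM by 1.86 ± 0.08 against ES and by 1.15 ± 0.08 against 2iLIF, the second at 0.94 and not called with quantile normalization. Gpx2, a glutathione peroxidase, fell in EPSCM, to 1.46 ± 0.133 FPKM, against 6.17 ± 1.40 in 2iLIF and 7.56 ± 1.15 in ES.

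Of 17 genes of the thioredoxin and peroxiredoxin list, 8 rose and 4 fell in EPSCM against ES, 8 rose and 3 fell in EPSCM against 2iLIF, and 6 rose and 5 fell in 2iLIF against ES. Txnip, which binds and inhibits thioredoxin, stood far from the rest: it averaged 540 ± 11.4 FPKM in EPSCM, 31.9 ± 0.835 in 2iLIF and 125 ± 4.36 in ES. The differences were 2.10 ± 0.05 in EPSCM against ES, 4.04 ± 0.05 in EPSCM against 2iLIF and -1.94 ± 0.05 in 2iLIF against ES, with limma adjusted p = 5.64e-09, 3.67e-10 and 6.09e-09. Sesn2, a sestrin that NRF2 and ATF4 can induce, fell in EPSCM to 21.8 ± 2.19 FPKM, against 51.3 ± 6.05 in ES (-1.20 ± 0.10). Its relatives went the other way: Sesn3 averaged 10.2 ± 0.485 FPKM in EPSCM, 9.29 ± 0.610 in 2iLIF and 3.19 ± 0.157 in ES, and Sesn1 rose by 1.10 ± 0.15 in EPSCM against ES, a call lost with quantile normalization (0.97), relative to its chromosome (0.94) and without EPSCM replicate 3 (0.9953). Msrb2, a methionine sulfoxide reductase of mitochondria, averaged 5.21 ± 0.0808 FPKM in EPSCM and 18.1 ± 0.360 in 2iLIF, and Prdx6 averaged 77.1 ± 4.88 FPKM in 2iLIF and 166 ± 6.89 in ES.

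Of 12 genes that supply NADPH, the cofactor of Gsr, Txnrd1 and Nqo1, 6 rose and 3 fell in EPSCM against ES, 7 rose and 2 fell in EPSCM against 2iLIF, and 4 rose and 4 fell in 2iLIF against ES. Me1, the cytosolic malic enzyme, had the largest difference of the list in EPSCM against ES (2.23 ± 0.07), at 37.5 ± 2.19 FPKM in EPSCM, 27.4 ± 1.44 in 2iLIF and 7.24 ± 0.473 in ES. Mthfd2, a mitochondrial enzyme of folate metabolism, fell in both media against ES, at 23.3 ± 1.09 FPKM in EPSCM and 25.7 ± 1.16 in 2iLIF, against 64.1 ± 2.44 in ES. Idh2, the mitochondrial isocitrate dehydrogenase, was at 138 ± 12.2 FPKM in EPSCM, 97.6 ± 7.65 in 2iLIF and 45.8 ± 4.57 in ES. Nnt, a transhydrogenase of the inner mitochondrial membrane, was at 18.8 ± 0.385 FPKM in EPSCM, 7.93 ± 0.218 in 2iLIF and 7.25 ± 0.131 in ES. Pgd, of the pentose phosphate pathway, fell in EPSCM to 62.5 ± 4.44 FPKM, against 177 ± 10.4 in 2iLIF (-1.49 ± 0.07, limma adjusted p = 2.71e-07).

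Of 36 genes of drug conjugation and export, with catalase and superoxide dismutases, 26 were tested; 10 rose and 8 fell in EPSCM against ES, 8 rose and 10 fell in EPSCM against 2iLIF, and 13 rose and 8 fell in 2iLIF against ES. Cbr3, a carbonyl reductase, averaged 11.0 ± 0.652 FPKM in EPSCM, 64.2 ± 2.75 in 2iLIF and 27.8 ± 2.68 in ES. Gsto1, an omega class glutathione transferase, averaged 6.41 ± 0.395 FPKM in EPSCM, 38.0 ± 1.61 in 2iLIF and 26.8 ± 1.75 in ES. The difference in EPSCM against 2iLIF was -2.44 ± 0.08 for Cbr3 and -2.40 ± 0.07 for Gsto1 (limma adjusted p = 2.19e-08 and 1.32e-08). Gstt1, a theta class glutathione transferase, went the other way, at 5.87 ± 0.848 FPKM in EPSCM, 0.990 ± 0.287 in 2iLIF and 6.04 ± 0.440 in ES, and was called in both comparisons with 2iLIF (1.79 ± 0.12 in EPSCM against 2iLIF and -1.83 ± 0.12 in 2iLIF against ES). Gsta3 fell in EPSCM against 2iLIF by 1.58 (SE 0.07). In 2iLIF against ES Gstm3 rose by 1.78 ± 0.17 and Gstp2 by 1.80 ± 0.08. Gstm2 averaged 49.0 ± 4.72 FPKM in 2iLIF and 10.2 ± 1.24 in ES; the Gstm, Gsta and Gstp genes are families of similar copies that may share reads, so their single values are uncertain.

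Of 11 genes of haem and iron, 10 were tested; 5 rose and 1 fell in EPSCM against ES, 4 rose and 2 fell in EPSCM against 2iLIF, and 3 rose and 1 fell in 2iLIF against ES. Blvrb, a biliverdin reductase, rose in both media against ES, at 56.2 ± 3.33 FPKM in EPSCM and 48.9 ± 6.05 in 2iLIF, against 18.7 ± 1.08 in ES. Ftl1, the light chain of the iron store ferritin, was at 1772 ± 127 FPKM in EPSCM, 975 ± 97.5 in 2iLIF and 799 ± 116 in ES. Tfrc, the transferrin receptor, was at 208, 103 and 207 FPKM in EPSCM, 42.1, 84.7 and 81.8 in 2iLIF and 20.1, 44.6 and 39.2 in ES. The library that stood apart was again the lowest of each medium. Tfrc rose by 2.29 ± 0.40 in EPSCM against ES (limma adjusted p = 6.47e-04). Its call in EPSCM against 2iLIF (1.30 ± 0.40, adjusted p = 0.0169) was lost without EPSCM replicate 1 (adjusted p = 0.0595), EPSCM replicate 3 (0.0589) or 2iLIF replicate 1 (0.0557). The call was also lost with the close libraries averaged (1.29, adjusted p = 0.0890).

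**Figure D5:**
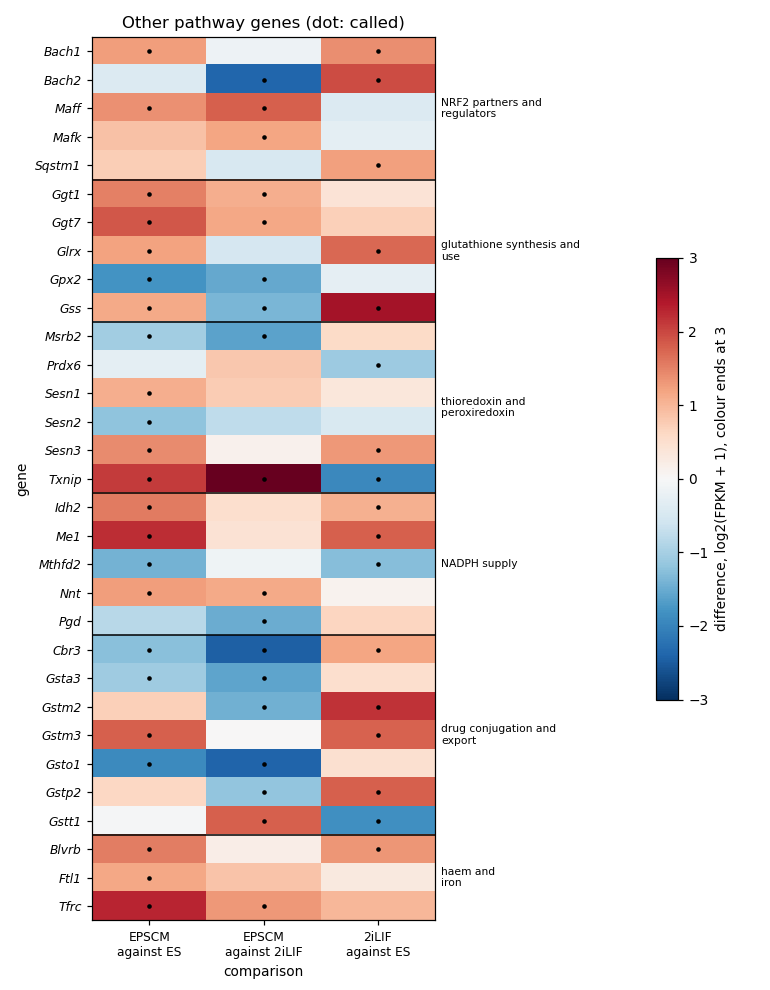
Differences of the other pathway genes that the naming rule took, in the 3 comparisons, as colour on the log2(FPKM + 1) scale that ends at 3 in either direction, with a dot where the gene was called and lines between the lists. Txnip has the darkest cell, at 4.04 in EPSCM against 2iLIF, and each list except haem and iron holds both called rises and called falls.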

How the data were processed

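Polyadenylated RNA of E14 mouse embryonic stem cells in 3 media was sequenced from stranded libraries, per the labels' protocols. The authors deposited 1 table of FPKM per gene and library, made with STAR and Cuffnorm on mm9, per the submitters' processing notes; the sources used here give no versions, annotation, scaling between libraries or strand setting. The members and lists were chosen with earlier results of these data known, as was the choice of the library of each medium that stood apart.

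Values were taken as log2(FPKM + 1), which understates changes of low genes, and genes that reached 1 FPKM in 3 or more libraries were tested with limma 3.58.1 (R 4.3.3; 1 mean for each medium, variance trend, Benjamini-Hochberg adjustment over 12330 genes). Replicate numbers follow accession order and only name libraries. The script was tested on simulated data. The table holds no fragment counts, and the steps between its low values showed no clear size of 1 fragment, so depth, counting intervals and floors are not given.

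Named genes were all members and the 3 genes most like each of the 3 members with the widest range. From each list and comparison up to 4 called genes were taken, those with the largest differences in size. Their mean was at least 1 FPKM in the higher medium. Promoters came from RefSeq (GRCm38.p6) by symbol; no coordinates of the files were used. Chromosomes came from the same assembly, where 24734 of 24819 symbols matched, 465 by synonym.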

Additional observations from a re-analysis of the deposited data

How the results depend on the processing

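Of 720 recalculated differences of members, 676 kept their direction and their side of the threshold, 15 no longer passed, 12 newly passed and 17 changed sign. The last were all values that did not pass. Relative to the chromosome median the difference was shifted but the adjusted p of the main fit was kept. That setting could change the sign of a difference but not whether it passed. Nqo1 in EPSCM against ES turned to -0.039 with quantile normalization, -0.073 with the same median ratio, -0.20 relative to its chromosome and -0.021 with the close libraries averaged, a setting chosen after seeing the data; it was -0.037 to 0.11 over the fits without 1 library, and newly passed with array weights at 0.13 (adjusted p = 0.0109). Gsr in the same comparison turned to -0.069 with the same median ratio and -0.19 relative to its chromosome. Gclc in EPSCM against 2iLIF was -0.13 to 0.016 over the fits without 1 library, and Prdx1 -0.67 to 0.29. In 2iLIF against ES Txnrd1 turned to -0.028 with the same median ratio and was -0.0077 to 0.062 over those fits, and with quantile normalization it was 0.14 and passed (adjusted p = 0.0430). In the same comparison Srxn1 turned to 0.0027 with the same sum and was -0.087 to 0.0042, and Prdx1 was -0.88 to 0.033.

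The count of called genes over the whole table was 2423 in EPSCM against ES, 1979 in EPSCM against 2iLIF and 1817 in 2iLIF against ES. Restricted to genes that averaged 5 FPKM or more, where fewer genes are tested, it was 1532, 1025 and 1055, and with a pseudocount of 0.1 it was 2738 in 2iLIF against ES. Rises were 49.5% of called genes in EPSCM against ES with quantile normalization, 51.7% with the same median ratio and 51.6% relative to the chromosome, against 59.4% without, so the majority turned to falls with quantile normalization; in EPSCM against 2iLIF quantile normalization gave 52.8%, against 63.2%. The core motif was in 5 member windows and the stricter one in 1. Of 1263 recalculated differences of other named pathway genes 1249 stayed called. These genes were picked as the largest called differences of the same data, and several settings leave the difference itself unchanged. A high count was therefore likely from the start. No paired analysis was possible because the labels give the media no shared replicate numbers; the covariate for the libraries that stood apart is a split seen in the data, not a pairing from the labels. The number of fragments behind each value is unknown, which limits what can be said of low genes.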
